A study of Mus musculus with 19 samples.

Results

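The measurements below concern 10 genes of the Wnt/beta-catenin pathway, taken by symbol from the 23420 genes listed in each count file: Ctnnb1, Axin2, Lef1, Tcf7, Tcf7l1, Tcf7l2, Sp5, Nkd1, Cdx1 and Lgr5. They were read in 19 mouse pluripotent stem cell lines or cultures, each with 1 RNA-seq library. Induced pluripotent stem cells (iPSC) had been made from embryonic fibroblasts of pooled litters with a lentivirus that expresses Oct4, Klf4, Sox2 and Myc constitutively and was not removed, and every iPSC line is a single clone. The iPSC of 129S1/SvImJ grew in serum medium with LIF (ESC/LIF: male clones 1 and 17 at passages 21 and 20, female clones 5 and 8 at passages 19 and 17). Clones 1 and 17 were also grown, to passages 31 and 30, in 2iS, the same serum medium with an inhibitor of GSK3B and an inhibitor of MEK. All NOD/ShiLtJ iPSC (male clones 3 and 35 at passages 26 and 16, female clones 7 and 52 at passages 17 and 18) and all WSB/EiJ iPSC (male clones 12 and 25 at passage 16, female clones 23 and 28 at passages 16 and 20) were in 2iS. The 3 embryonic stem cell (ESC) lines, 1 male line each of NOD/ShiLtJ, WSB/EiJ and a 129 strain at passage 6, were also kept with both inhibitors. The 2 epiblast stem cell (EpiSC) lines were 1 male NOD/ShiLtJ line at passage 38 and 1 male 129 line at passage 16. They grew in a medium of their own, so medium also differs with cell state in every comparison with EpiSC. The EpiSC and ESC lines were supplied by other laboratories. Cell state and source laboratory therefore cannot be told apart in comparisons of iPSC with ESC or EpiSC. No label says that lines of a group are separate derivations beyond their clone numbers, so p-values measure the spread between these libraries.

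The groups follow the sample titles; the source names match the titles in 0 of 19 libraries and were not used. Chromosome Y genes had counts in 13 of 13 libraries titled male and in 0 of 6 titled female. The sex given in the sample characteristics disagreed with these counts in 10 libraries. Naive pluripotency genes summed to 1237 CPM or more in every ESC and iPSC library and to 5.80 and 17.0 CPM in the EpiSC. This matches the titles for EpiSC against the other states. Strain, medium, clone and the split of ESC from iPSC were not checked in this way. Few read pairs fell on genes. The 17 libraries used for most comparisons had 6082886 to 16307859 uniquely aligned pairs. They held 92996 to 226794 read pairs on genes (median 146249), 1.15% to 1.74% of the uniquely aligned pairs. The NOD/ShiLtJ male iPSC clones 3 and 35 stood apart with 567432 and 430173 pairs on genes, 5.62% and 5.59%, and are compared separately. The cause of these low shares was not tested. CPM are counts relative to the library total, in the usual scaled unit, with library totals adjusted by the trimmed mean of M values (TMM). In the 17 libraries 3 counts, the limit that a count of 0 allows, correspond to 13.2 to 32.3 in this unit over unadjusted totals. With the adjusted totals the limit is higher in each of these libraries. In the 129 EpiSC, 3 counts of Axin2 are 25.5 CPM, against 15.7 over the unadjusted total. Several of the genes are therefore at the edge of detection, and these limits cover counting error only.

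In canonical Wnt signalling, a destruction complex built on Axin and APC lets GSK3B phosphorylate beta-catenin, which is then degraded. Wnt binding to its receptors, or chemical inhibition of GSK3B, spares beta-catenin, which enters the nucleus and joins the TCF/LEF proteins on target genes such as Axin2 and Sp5. In mouse pluripotent cells Tcf7l1 acts mainly as a repressor that beta-catenin relieves, GSK3 inhibition helps to hold the naive state, and Wnt activity in the epiblast precedes the primitive streak. Because both the 2iS iPSC and the ESC carry a GSK3B inhibitor, the question put to the data is how the effectors and targets stand in these cells against iPSC without the inhibitors and against EpiSC.

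TCF/LEF proteins bind DNA at the letters CTTTGAT or its reverse complement ATCAAAG. A search of both strands of the RefSeq promoter windows (GRCm38.p6, 250 bases before to 50 after a start site) found these letters in 1225 of 32851 windows, 3.73%. Of the 14 windows that matched 8 of the genes, 1 held them, that of Sp5. It is shown beside the window of Axin2, the other general feedback target, because the inhibitor in 2iS acts on the step upstream of these targets. The Sp5 window lies on the plus strand at chr2:70474673-70474972 and that of Axin2 on the plus strand at chr11:108920099-108920398, and capitals mark the match.
Sp5: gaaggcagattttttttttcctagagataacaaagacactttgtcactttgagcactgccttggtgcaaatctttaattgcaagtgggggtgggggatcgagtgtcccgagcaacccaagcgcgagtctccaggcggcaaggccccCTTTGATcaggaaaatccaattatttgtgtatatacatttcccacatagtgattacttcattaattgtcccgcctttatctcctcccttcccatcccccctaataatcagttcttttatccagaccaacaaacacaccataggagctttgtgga
Axin2: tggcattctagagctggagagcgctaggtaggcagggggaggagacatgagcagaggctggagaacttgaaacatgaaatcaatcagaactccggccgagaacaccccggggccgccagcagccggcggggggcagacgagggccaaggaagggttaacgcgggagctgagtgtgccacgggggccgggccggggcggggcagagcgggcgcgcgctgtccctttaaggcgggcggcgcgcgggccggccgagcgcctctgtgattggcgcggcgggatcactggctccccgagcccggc
The match is a description of letters in a window. Its absence from the other windows says nothing of binding elsewhere at those genes.

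Ctnnb1 (chr9:120929216-120960507, GRCm38, plus strand), which encodes beta-catenin, was the most abundant of the 10 per kilobase of exon. Its mean over the 17 libraries was 57.5 CPM per kb (n = 17, lowest 34.8, highest 90.0), against 13.2 ± 6.21 (SD, n = 17) for Tcf7l1, 11.3 ± 7.18 for Tcf7, 6.18 ± 3.92 for Axin2, 4.94 ± 9.74 for Sp5, 4.66 ± 5.58 for Cdx1, 3.71 ± 2.89 for Tcf7l2, 2.24 ± 3.57 for Lef1, 0.518 ± 1.48 for Nkd1 and 0.0393 ± 0.162 for Lgr5. Ctnnb1 at its lowest (34.8 CPM per kb) was above the highest library of every other gene but Sp5, which reached 38.8 in WSB/EiJ female clone 23, while below Ctnnb1 each gene overlapped the next in this order.

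By library, Ctnnb1 was at 406 CPM in the NOD/ShiLtJ EpiSC and 467 in the 129 EpiSC. The ESC held 263 (NOD/ShiLtJ), 352 (WSB/EiJ) and 433 CPM (129). The ESC/LIF iPSC held 276 in each of clones 1 and 17, 255 in clone 5 and 413 in clone 8. The 8 iPSC libraries in 2iS other than the NOD/ShiLtJ males ranged from 181 to 350.4 CPM. Thus the 2iS values all lay below both EpiSC, and all other pairs of these states overlapped.

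Among the DNA-binding partners, Tcf7l1 (chr6:72626378-72789254, minus strand) varied more between lines of 1 state than between states. It stood at 58.0 and 68.0 CPM in the NOD/ShiLtJ and 129 EpiSC, and at 60.7, 20.11 and 82.1 CPM in the NOD/ShiLtJ, WSB/EiJ and 129 ESC. The ESC/LIF iPSC held 35.1, 75.2, 61.8 and 22.6 CPM in clones 1, 17, 5 and 8, and the 8 libraries in 2iS ran from 23.8 to 102 CPM around a mean of 49.8 ± 27.8 (SD, n = 8). The groups overlapped throughout.

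Tcf7 (chr11:52252371-52283014, minus strand), which encodes TCF1, was highest in EpiSC, at 75.3 (NOD/ShiLtJ) and 51.0 CPM (129). The ESC lay close together at 40.5, 40.2 and 44.8 CPM. The ESC/LIF iPSC spread from 5.65 CPM in clone 8 to 50.1 in clone 17, and the 8 libraries in 2iS from 8.35 to 29.7 CPM, below every ESC and EpiSC library.

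Tcf7l2 (chr19:55741820-55933654, plus strand), which encodes TCF4, stood at 58.0 CPM in the NOD/ShiLtJ and 102 in the 129 EpiSC. In the 4 ESC/LIF iPSC it was at 50.1, 50.1, 54.1 and 33.9 CPM (clones 1, 17, 5 and 8). In the ESC it was at 40.5, 10.1 and 22.4 CPM (NOD/ShiLtJ, WSB/EiJ, 129), and in the 8 libraries in 2iS at 0 to 35.6 CPM. The 2iS range thus overlapped the ESC/LIF range only through NOD/ShiLtJ female clone 7 at 35.6 CPM.

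Lef1 (chr3:131110471-131224356, plus strand) gave 8 counts in each EpiSC library, 46.4 and 68.0 CPM. The ESC were split, with 5 counts in NOD/ShiLtJ (50.6 CPM), 11 in WSB/EiJ (111 CPM) and 0 in 129. Of the 4 ESC/LIF iPSC only clone 17 had a count, 1, and the 8 libraries in 2iS held 6 counts in all, at most 3 in any library. Fibroblast genes, listed as markers of feeder cells, moved with this pattern in part. The 16 listed summed to 1102, 1589 and 1829 CPM in the NOD/ShiLtJ, WSB/EiJ and 129 ESC and to 110.1 and 450.2 CPM in the EpiSC. They summed to 0 to 30.9 CPM in the ESC/LIF iPSC and to 11.9 to 128 CPM in 2iS. The 129 ESC, with the highest fibroblast sum, was the ESC without a Lef1 count. The source of the fibroblast RNA and its part in the Lef1 counts were not tested. In bulk RNA, fewer cells of a kind and less RNA per cell cannot be told apart.

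**Figure D1:**
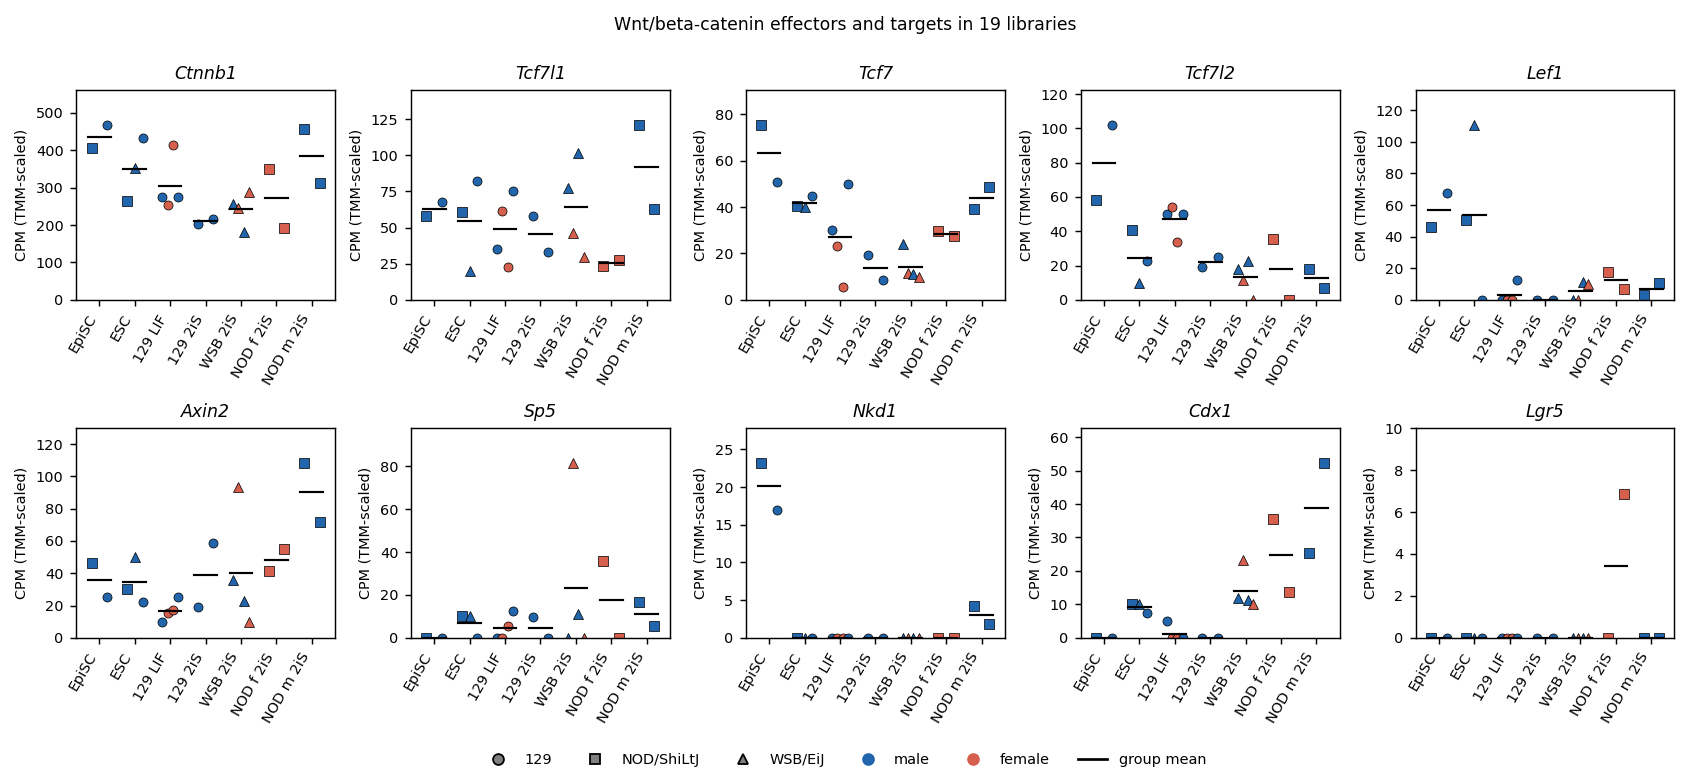
Normalised abundance (CPM, linear axis from 0) of each of the 10 genes in 19 libraries, by cell state, medium and strain. Each point is 1 library, the shape gives the strain, the colour the sex of the title, and the bar the group mean. Ctnnb1, Tcf7, Tcf7l2, Lef1 and Nkd1 have their highest group mean in EpiSC, and Cdx1 is at 0 there.

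The target Axin2 (chr11:108920349-108950783, plus strand), a scaffold of the destruction complex that Wnt signalling induces as negative feedback, did not order the states. It stood at 46.4 and 25.5 CPM in the NOD/ShiLtJ and 129 EpiSC, and at 30.3, 50.3 and 22.4 CPM in the NOD/ShiLtJ, WSB/EiJ and 129 ESC. The ESC/LIF iPSC were low and close together, at 10.03, 25.1, 15.4 and 17.0 CPM in clones 1, 17, 5 and 8. In 2iS Axin2 covered 9.98 to 93.2 CPM, mean 42.0 ± 26.7 (SD, n = 8), and 41 counts in 8 libraries lay behind it against 9 counts in the 4 ESC/LIF libraries.

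Sp5 (chr2:70474923-70477729, plus strand), a zinc-finger repressor induced by Wnt, had 0 counts in both EpiSC. It had 1 count in each of the NOD/ShiLtJ and WSB/EiJ ESC and in ESC/LIF clones 17 and 8. In 2iS the 15 counts came almost wholly from 2 libraries, WSB/EiJ female clone 23 (7 counts, 81.5 CPM) and NOD/ShiLtJ female clone 7 (6 counts, 35.6 CPM), and 4 of the 8 libraries were at 0. Axin2 was also highest, at 93.2 CPM, in clone 23.

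Nkd1 (chr8:88521354-88594884, plus strand), an inhibitor that binds Dishevelled, was counted only in EpiSC among the 17 libraries, with 4 counts in the NOD/ShiLtJ line (23.2 CPM) and 2 in the 129 line (17.0 CPM). The pooled EpiSC value was 2.29-fold the value that 3 counts would give over the ESC, 4.03-fold over the ESC/LIF iPSC and 6.75-fold over the 2iS iPSC. These ratios leave out the counting error of the EpiSC counts and are not lower bounds. Nkd1 lay under the minimum of 10 summed counts used for the tests below. With no filter (16808 genes) edgeR gave it an adjusted p of 0.0506 for 2iS iPSC, 0.157 for ESC/LIF iPSC and 0.354 for ESC, each against EpiSC. The NOD/ShiLtJ males, with more pairs on genes, gave 3 and 1 counts (4.22 and 1.80 CPM).

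Cdx1, a caudal homeobox gene and known Wnt target, showed the reverse: 0 counts in both EpiSC and 1 count in each ESC (7.47 to 10.1 CPM). Among the iPSC it had counts in 8 of 8 NOD/ShiLtJ and WSB/EiJ libraries, from 9.98 CPM in WSB/EiJ clone 28 to 52.2 in NOD/ShiLtJ clone 35, and in 1 of 6 libraries of 129 iPSC, a single count in ESC/LIF clone 1. The 129 clones 1 and 17 in 2iS had none. Lgr5, a receptor for R-spondins and a Wnt target in adult stem cells, gave 1 count in all 19 libraries, in NOD/ShiLtJ female clone 52, and cannot be compared.

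The tests were edgeR quasi-likelihood tests with Benjamini-Hochberg adjustment and a threshold of 0.05. Only Ctnnb1 and Tcf7l1 passed the expression filter (3986 genes in 17 libraries). The other genes are given by a fit of the 11636 genes with at least 10 summed counts, which took in 8 of the 10, all but Nkd1 and Lgr5. Where 1 of the strain and sex groups had no count of a gene, as for Lef1 and Cdx1, a mean over groups has no value, so a fit with 4 groups of cell state and medium, added after the data were seen, gives the size of the difference. Fold changes below are log2 with the standard error. In the comparisons where edgeR called 0 of the genes that passed the expression filter, DESeq2 called 0 as well. Statements above and below that libraries of different groups do not overlap describe single genes. The share of all tested genes without overlap was not counted.

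Between iPSC in 2iS and EpiSC, Ctnnb1 and 3 of the 4 TCF/LEF genes were called lower and Tcf7l1 was not. Ctnnb1 was lower in 2iS, with a fold change of -0.85 ± 0.27 (edgeR adjusted p = 0.0170, 1 of 2 genes called against 33.8% of all), and Tcf7l1 was at -0.49 ± 0.51 (adjusted p = 0.488). In the fit of 11636 genes, 4 of the 8 genes tested were called lower and 0 higher. The background was 17.5% of all tested genes called in either direction (12.9% lower). The 4 include Lef1, which has a group without counts, so its size is given from the fit with 4 groups. The others called were Tcf7 (-1.87 ± 0.60, adjusted p = 0.0179), Tcf7l2 (-2.31 ± 0.61, adjusted p = 0.00279) and Lef1. With 4 groups (14.4% called, 9.89% lower), edgeR gave Lef1 -3.00 ± 0.83 (adjusted p = 0.00980), Tcf7 -1.69 ± 0.56 (adjusted p = 0.0350) and Tcf7l2 -2.10 ± 0.58 (adjusted p = 0.00981), and Ctnnb1 missed the threshold (-0.82 ± 0.29, adjusted p = 0.0507). Each of the 4 was lower in 8 of 8 libraries in 2iS than in either EpiSC, and the share of all genes that separate in this way was not counted.

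None of the targets Axin2, Sp5 and Cdx1 was called in the same comparison. Axin2 stood at 0.15 ± 0.61 (edgeR adjusted p = 0.937), with a 95% interval of -1.06 to 1.35. Sp5 and Cdx1 were at 0 in EpiSC. Their pooled values in 2iS were 1.48-fold and 1.38-fold the value that 3 counts would give over the EpiSC. These ratios leave out the counting error of the 2iS counts and are not lower bounds. Neither gene passed (edgeR adjusted p = 0.161 and 0.104 with 4 groups). The EpiSC group has 2 libraries, and the calls for Ctnnb1, Tcf7 and Tcf7l2 lean on them. Lef1, which has a group without counts, has no value from fits without 1 library. Without the 129 line, Ctnnb1 was at -0.76 (adjusted p = 0.0999) and Tcf7l2 at -1.87 (adjusted p = 0.0876), and without the NOD/ShiLtJ line Tcf7 was at -1.43 (adjusted p = 0.317).

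When uniquely aligned read pairs set the library size instead of TMM, the median gene of this comparison moved by 0.56, and Ctnnb1 stood at -0.26 (adjusted p = 0.494). Relative to the median gene it was at -0.89 under TMM and -0.87 under this scaling. The call for Ctnnb1 therefore refers to its place among the other genes and not to its share of aligned reads.

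Genes with exons overlapped by an exon on the opposite strand also stood apart in the comparisons with EpiSC. For 2iS against EpiSC after the expression filter, 1908 such genes had a median fold change of -0.34 (quartiles -1.09 to 0.35, 620 called lower and 165 higher), and the 2039 others a median of 0.35 (201 lower, 346 higher). The medians were -0.30 and 0.30 for ESC/LIF iPSC and -0.24 and 0.31 for ESC. Ctnnb1, Tcf7l1, Axin2 and Lef1 have such exons. Ctnnb1 in 2iS lay within the quartiles of its class, at -0.51 relative to the class median. With 4 groups, Lef1 lay below the quartiles of its class (-1.09 to 0.52), as did Tcf7 and Tcf7l2 in the class without such exons (-0.69 to 0.91). The part of this split in the calls was not tested.

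Between iPSC in ESC/LIF and EpiSC, the expression-filtered test called 0 of the 2 genes (26.2% of 3986 genes were called, and 0 of the 2 had an unadjusted p under the threshold). Ctnnb1 was at -0.51 ± 0.29 (adjusted p = 0.211) and Tcf7l1 at -0.48 ± 0.56 (adjusted p = 0.562). In the fit of 11636 genes Lef1 alone was called, lower (12.6% of genes called, 8.20% lower), with an edgeR adjusted p of 0.00853 in 4 groups (10.4% called, 6.73% lower). On pooled counts, 16 in EpiSC and 1 in the 4 iPSC, EpiSC were 32.3-fold higher (95% exact binomial interval 5.01 to 1354, counting error only). Tcf7 was at -1.43 ± 0.65 (adjusted p = 0.143), Axin2 at -1.16 ± 0.75 (adjusted p = 0.357) and Tcf7l2 at -0.66 ± 0.58 (adjusted p = 0.519), and for each of these the 4 iPSC lay below both EpiSC.

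Between ESC and EpiSC no gene was called by edgeR, 0 of 2 after the expression filter (9.91% of genes called higher and 11.2% lower, 0 of the 2 at an unadjusted p under the threshold) and 0 of 8 in the larger fit (9.02% called, 6.96% with 4 groups). Tcf7l2 came nearest at -1.67 ± 0.70 (unadjusted p = 0.0192, adjusted p = 0.134), with all 3 ESC below both EpiSC. Ctnnb1 was at -0.31 ± 0.31 with an interval of -0.92 to 0.31, and Lef1 at -0.20 ± 0.77 with an interval of -1.70 to 1.30.

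Between iPSC in 2iS and ESC, both with the inhibitors, Ctnnb1 (-0.54 ± 0.24, adjusted p = 0.179) and Tcf7l1 (-0.34 ± 0.47, adjusted p = 0.709) were not called by edgeR, where 9.63% of genes were. Lef1 was called lower in 2iS (1 of 8 genes, 5.69% called in the larger fit, 5.03% lower), at -2.80 ± 0.80 with 4 groups (adjusted p = 0.0377, 3.06% called, 2.67% lower). The ESC values overlap those of 2iS, since the 129 ESC had no Lef1 count, and the fibroblast genes given above were also lower in every 2iS library than in every ESC library. Their part in the Lef1 difference was not tested. Tcf7 was at -1.23 ± 0.61 (adjusted p = 0.293), although all 8 iPSC libraries lay below the 3 ESC.

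**Figure D2:**
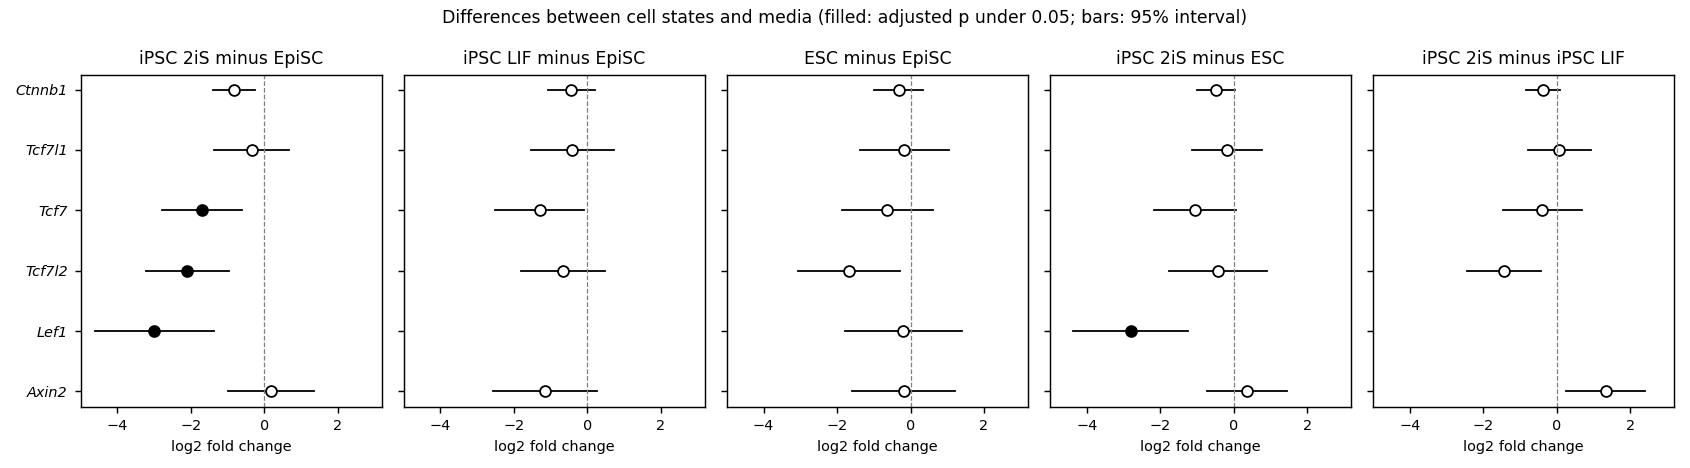
Log2 fold changes (first minus second group) of 6 genes in the 5 comparisons of cell state and medium, from the fit with 4 groups and 11636 genes. Points are estimates, bars 95% intervals and filled points have an adjusted p under 0.05, and genes with 3 or fewer counts in a group are left out. Tcf7, Tcf7l2 and Lef1 are filled below 0 for 2iS against EpiSC, Lef1 for 2iS against ESC, and no point is filled for the media.

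The medium was compared across all iPSC and, more strictly, within the 129 clones 1 and 17. Across all (8 libraries in 2iS, 4 in ESC/LIF), no gene was called by edgeR, 0 of 2 after the filter (6.52% of genes called, 0 at an unadjusted p under the threshold) and 0 of 8 in the larger fit (3.72% called, 2 at an unadjusted p under the threshold). These 2 were Tcf7l2, lower in 2iS at -1.65 ± 0.55 (adjusted p = 0.0777), and Axin2, higher at 1.31 ± 0.57 (adjusted p = 0.254). Tcf7l2 passed (-1.65, adjusted p = 0.0314) when only the iPSC groups were fitted, and its adjusted p was 0.162 with 4 groups (1.89% called). Ctnnb1 was at -0.34 ± 0.22 with an interval of -0.77 to 0.10. Cdx1 had 14 counts in 2iS and 1 in ESC/LIF, a pooled ratio of 8.37 (95% exact binomial interval 1.27 to 354), and Sp5 had 15 and 2, a ratio of 4.48 (1.04 to 40.4). Both ratios mix medium with strain, since ESC/LIF was used for 129 alone, and cover counting error only. In the 129 clones 1 and 17, Cdx1 had 0 counts in 2iS and 1 in ESC/LIF, and Sp5 had 1 in each medium. Across libraries neither was called (edgeR adjusted p = 0.264 for Cdx1 and 0.525 for Sp5 with 4 groups).

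Within the 129 clones, where strain and clone are held, the passage still differs with the medium. Ctnnb1 was lower in 2iS in both clones, 203 against 276 CPM in clone 1 and 217 against 276 in clone 17. Tcf7l2 was lower in both, 19.3 against 50.1 CPM (2 against 10 counts) and 25.1 against 50.1 CPM (3 against 4 counts). Tcf7 was lower in both, 19.3 against 30.1 CPM (2 against 6 counts) and 8.35 against 50.1 CPM (1 against 4 counts). Axin2 was at 58.5 against 25.1 CPM in clone 17 (7 against 2 counts). In clone 1 it was at 19.3 against 10.03 CPM from 2 counts in each library, a difference that comes from library size alone. Tcf7l1 went up in clone 1 (57.9 against 35.1) and down in clone 17 (33.4 against 75.2). None passed the test. The smallest adjusted p of edgeR was 0.858 among the 2 genes of the filtered fit (0.803% of genes called, 0 of 2 at an unadjusted p under the threshold) and 0.852 among the 8 of the larger fit (0.559% called, 0 of 8). Fold changes were -0.40 ± 0.38 for Ctnnb1 (interval -1.14 to 0.34), -1.16 ± 0.86 for Tcf7l2 (-2.85 to 0.53) and 1.35 ± 0.95 for Axin2 (-0.51 to 3.21). Differences of a few-fold in the low genes could therefore go uncalled with 2 libraries per medium and so few pairs on genes. Which of these limits weighed more was not tested.

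**Figure D3:**
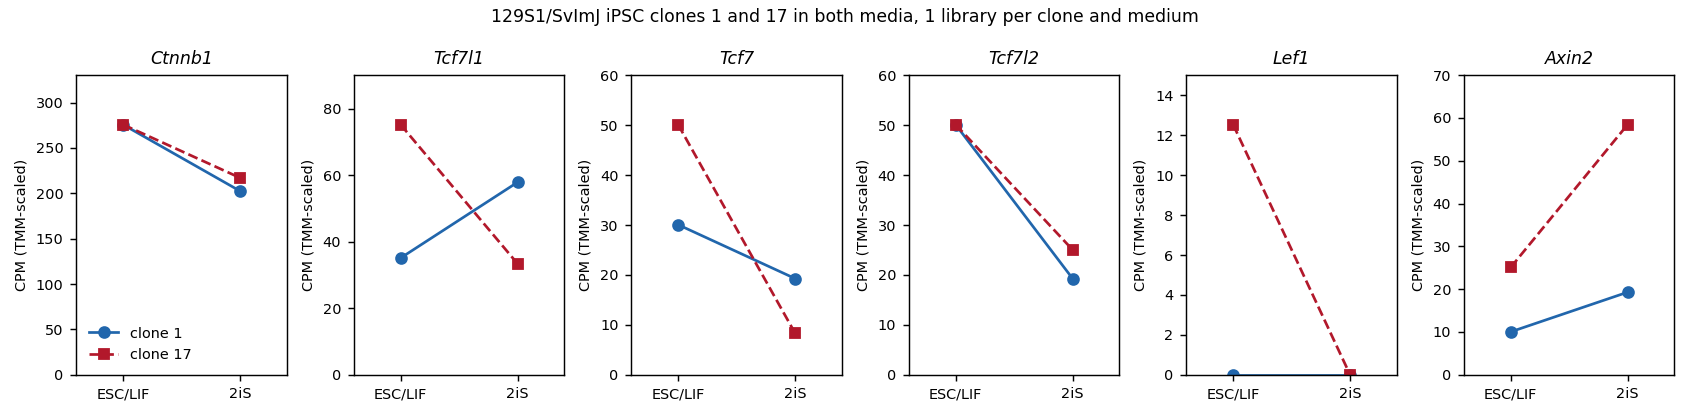
CPM (linear axes from 0) of 6 genes in 129S1/SvImJ iPSC clones 1 and 17 in ESC/LIF and in 2iS, with a line joining the 2 libraries of each clone. Ctnnb1, Tcf7 and Tcf7l2 slope down and Axin2 up in both clones, Tcf7l1 slopes in opposite directions, and no difference passed the test. The Axin2 slope of clone 1 rests on 2 counts in each medium, and that of Tcf7l2 in clone 17 on 4 and 3 counts.

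Among iPSC in 2iS, neither strain comparison called a gene by edgeR. For WSB/EiJ against 129, 1.33% of genes were called, and Ctnnb1 was at 0.22 ± 0.34 (adjusted p = 0.860) and Tcf7l1 at 0.35 ± 0.64 (adjusted p = 0.886), with 0 of 2 under the threshold before adjustment. For NOD/ShiLtJ females against 129 males, 0.351% were called, and Ctnnb1 was at 0.40 ± 0.37 (adjusted p = 0.881) and Tcf7l1 at -0.77 ± 0.76 (adjusted p = 0.900), again with 0 of 2; there sex and strain cannot be told apart. Cdx1, at 0 in the 129 lines, had an edgeR adjusted p of 0.627 and 0.607 in the larger fit (1.10% and 0.602% called). Its pooled values in WSB/EiJ and in NOD/ShiLtJ females were 1.01-fold and 1.90-fold the value that 3 counts would give over the 129 lines. These ratios leave out the counting error of the Cdx1 counts and are not lower bounds.

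The NOD/ShiLtJ males held most counts of several of these genes. Clones 3 and 35 gave 77 and 40 counts of Axin2 (108 and 72.1 CPM), against 7 and 8 in the females (41.6 and 54.8 CPM). Tcf7l1 was at 121 and 63.0 CPM in the males and 23.8 and 27.4 CPM in female clones 7 and 52. Ctnnb1 was at 455 and 313 CPM in the males and 350.4 and 192 in the females, so that only Axin2 and Tcf7l1 of these 3 were without overlap. By edgeR over 19 libraries (4641 genes, 30.9% called, 8.45% higher), Tcf7l1 was called higher in males at 1.84 ± 0.57 (adjusted p = 0.0158), while DESeq2 did not call it (1.75, adjusted p = 0.118). Axin2 was at 0.91 ± 0.56 (adjusted p = 0.225) and Ctnnb1 at 0.50 ± 0.33 (adjusted p = 0.265). Without clone 3, Tcf7l1 was at 1.26 (adjusted p = 0.212), without female clone 7 at 1.70 (adjusted p = 0.142) and without female clone 52 at 1.87 (adjusted p = 0.111). In the larger fit it was the 1 gene called of 9 (11.6% called, 2.49% higher).

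The male libraries also differed in their share of pairs on genes, and the split by strand context was seen here too. Genes with exons on the opposite strand had a median fold change of -0.80 (2088 genes), and those without 0.43 (2514 genes). Tcf7l1 has 179 bases of its exons overlapped on the opposite strand (by Gm15401), Ctnnb1 759 (Ulk4), Axin2 209 (Gm11670) and Lef1 1208 (Gm43352), while the other 6 genes have none. Scaling by uniquely aligned pairs moved the median gene by 2.41, and as CPM of aligned pairs Ctnnb1 stood at 32.1 and 22.6 in the males and 4.94 and 2.38 in the females. The part of these library differences in the Tcf7l1 result was not tested.

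**Figure D4:**
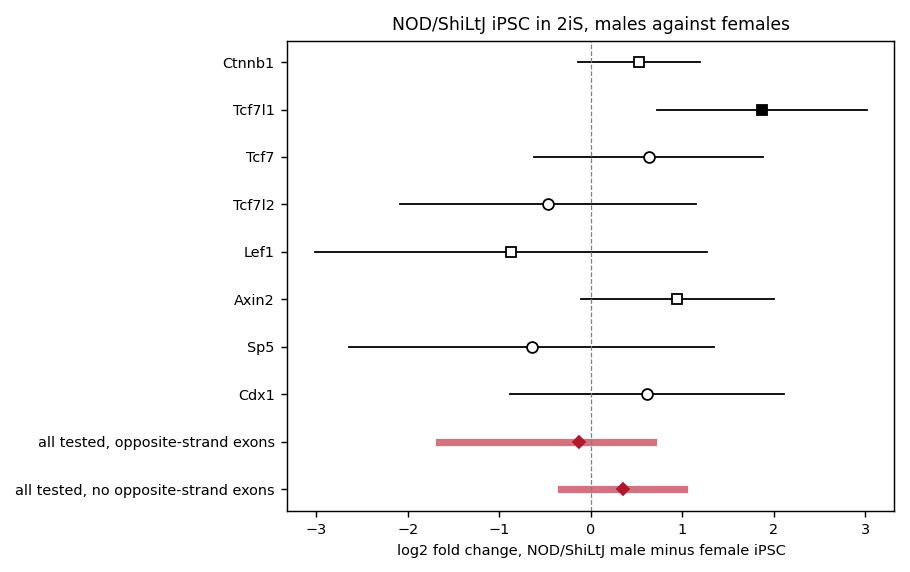
Log2 fold changes, NOD/ShiLtJ male minus female iPSC in 2iS, for the 8 genes with counts in both groups, from the fit of 12404 genes. Black points with 95% intervals are the genes (squares have opposite-strand exons, filled means an adjusted p under 0.05), and red diamonds with bars are the median and quartiles of all tested genes of each class, which are centred at -0.13 and 0.36. Tcf7l1 is the only filled point.

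The rest of the pathway was read from 101 listed genes (secretion, ligands, receptors, cytoplasmic and nuclear components, extracellular inhibitors and other targets), of which 17 passed the expression filter. Against EpiSC, 2 of the 17 rose and 2 fell in 2iS iPSC, 2 rose and 2 fell in ESC/LIF iPSC, and 0 rose and 2 fell in ESC by edgeR. Over all genes 33.8%, 26.2% and, for ESC, 9.91% higher and 11.2% lower were called, so the shares in the list are near or below the background. In the fit of 11636 genes, 2 of 55 rose and 10 fell in 2iS iPSC (17.5% called, 12.9% lower). Of the other targets, Sp8 (-3.52 ± 0.80, adjusted p = 0.00169 with 4 groups) and Tnfrsf19 (-2.39 ± 0.81, adjusted p = 0.0395), named after their values were seen, were among those that fell. The ligand gene Wnt2b fell each time, by 2.20 ± 0.34 on the log2 scale in 2iS (adjusted p = 3.21e-05), by 1.59 ± 0.37 in ESC/LIF (adjusted p = 0.00273) and by 1.44 ± 0.40 in ESC (adjusted p = 0.0133). These 3 comparisons share the EpiSC libraries. Wnt2b was at 162 to 187 CPM in EpiSC, 59.7 to 70.4 in ESC, 50.1 to 75.2 in ESC/LIF iPSC and 19.3 to 50.1 in 2iS.

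The cyclin gene Ccnd1 also fell each time, by 1.33 ± 0.32 in 2iS (adjusted p = 0.00270), 1.11 ± 0.35 in ESC/LIF (adjusted p = 0.0239) and 1.11 ± 0.39 in ESC (adjusted p = 0.0451), from 220.2 to 323 CPM in EpiSC to 28.9 to 175 in 2iS. Ccnd1 has exons on the opposite strand, and after the expression filter it lay below the quartiles of that class in all 3. Sfrp1, a secreted Wnt antagonist, rose in 2iS by 1.29 ± 0.44 (adjusted p = 0.0268), from 25.5 and 58.0 CPM in EpiSC to 68.5 to 180 CPM. Tle4, a corepressor that binds TCF proteins, rose in ESC/LIF iPSC by 1.98 ± 0.69 (adjusted p = 0.0369). Myc rose by 2.98 ± 0.57 in 2iS (adjusted p = 0.000338) and 3.22 ± 0.59 in ESC/LIF iPSC (adjusted p = 0.000339), but Myc is also 1 of the reprogramming factors carried by the vector, whose reads were not separated here.

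Against ESC, 2 of the 17 rose in 2iS iPSC (1.58% of all genes higher) and 0 fell, Myc (4.37 ± 0.62, edgeR adjusted p = 4.37e-05) and Id2, an inhibitor of helix-loop-helix factors that was at 0 in all 3 ESC and at 6.85 to 140 CPM in 2iS (adjusted p = 0.0228). Between the media 1 of the 17 fell in 2iS (4.37% of all genes lower), the corepressor gene Ctbp2 (-1.02 ± 0.24, adjusted p = 0.0135), at 29.9 to 167 CPM against 160.4 to 247 CPM. Within the 129 clones 0 of the 17 were called by edgeR, with 3 at an unadjusted p under the threshold.

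Of 8 listed genes that Tcf7l1 is known to restrain in naive cells, 7 were tested in the 17 libraries. All 7 rose against EpiSC in ESC and in 2iS iPSC by edgeR, and 6 of 7 in ESC/LIF iPSC, where 9.91%, 12.9% and 10.5% of all genes were called higher. Esrrb, an orphan nuclear receptor, was at 0 in both EpiSC, at 101 to 276 CPM in ESC, 266 to 390.0 in ESC/LIF iPSC and 171 to 351 in 2iS. Nanog, a homeobox factor, was the gene that missed the threshold in ESC/LIF, and it was the 1 of 7 that rose between the media, by 1.19 ± 0.30 in 2iS (adjusted p = 0.0207, 2.16% of all genes higher), from 37.6 to 69.5 CPM to 86.8 to 171 CPM. The listed genes are also markers of the naive state. Esrrb, Klf4, Tbx3, Nr0b1 and Tfcp2l1 are in the naive list whose sums were set against the titles above. The rise against EpiSC is therefore not separate from that check, and Klf4 is also a factor of the vector.

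In NOD/ShiLtJ males against females, 3 of 22 tested genes of these lists rose and 2 fell by edgeR, against 8.45% higher and 22.5% lower over all genes (30.9% in all). Tle3 (1.22 ± 0.39, adjusted p = 0.0186), Ctbp1 (2.15 ± 0.76, adjusted p = 0.0334) and Csnk1e (1.35 ± 0.49, adjusted p = 0.0383) were higher, and Wnt2b (-2.06 ± 0.60, adjusted p = 0.00993) and Gsk3a (-1.24 ± 0.33, adjusted p = 0.00490) lower. Jup, which encodes plakoglobin, a relative of beta-catenin at cell junctions, was higher at 1.66 ± 0.47 (adjusted p = 0.00813). Csnk1e and Gsk3a have opposite-strand exons, and the library differences given above apply to all of these.

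The genes most like the 3 with most counts across the 17 libraries, by Pearson's r of log2 CPM over the tested genes, were Itgb1 (r = 0.81) and Map7d1 (0.77) for Ctnnb1, Gdf1 (0.80) and 8430429K09Rik (0.72) for Tcf7l1, and Gpatch3 (0.87) and Lamb1 (0.84) for Tcf7l2. The points share libraries and depth, and Tcf7l1 and Tcf7l2 rest on 109 and 74 counts in all, so the order is a description.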

How the data were processed

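RNA-seq was read from 19 mouse libraries (TruSeq Stranded mRNA). The authors trimmed reads with Trimmomatic, aligned them with TopHat2 2.1.1 to GRCm38 and counted read pairs per gene with HTSeq; the strand setting and annotation release are not given in the sources used here. The deposited values are raw counts per gene, and rows that name no gene were left out of library sizes (only 1.15% to 1.74% of uniquely aligned pairs fell on genes in 17 libraries). Groups were taken from the titles. The 10 genes and the gene lists were chosen with earlier results of these data known. Counts were tested with edgeR 4.0.16 (R 4.3.3) after filterByExpr and TMM in 17 libraries of 8 groups, with groups of an arm weighted equally, Benjamini-Hochberg adjustment over all tested genes and a threshold of 0.05; the NOD/ShiLtJ males were compared in a fit of 19 libraries. Genes under the filter were given from a fit of genes with at least 10 summed counts. The code was tested on simulated data. Displayed CPM use TMM over all libraries. The 95% intervals of fold changes come from the standard error. Alternatives were DESeq2 1.42.0, other scalings, filters and library sets. Named genes were all 10; from the Wnt lists those past the threshold, at most 6 per comparison by smallest adjusted p, and at most 3 from any other list; and the 2 tested genes with the highest r for each of the 3 of the 10 genes with most counts. Esrrb and Jup were taken from the other lists. Clones 1 and 17 are the same lines in both media and so pair by origin; their deviations from the group means correlated at 0.06 over 3986 genes. Gene positions are from GENCODE M21, to which 98.4% of symbols matched.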

Additional observations from a re-analysis of the deposited data

Results flagged for a closer look

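Of 17 sets of values tested for a lone extreme library by the gap to its neighbour over the range, 5 held one. A set with a single count among zeros is always flagged by this rule. No chance rate is therefore given for these sparse counts. Ctnnb1 in ESC/LIF iPSC female clone 8 stood at 413 CPM (73 counts), with the nearest of the other 3 at 276 CPM. Sp5 in WSB/EiJ female clone 23 stood at 81.5 CPM (7 counts), with the next of the 8 libraries in 2iS at 35.6 CPM. The other 3 rest on 1 count each in a set otherwise at 0: Lef1 in ESC/LIF clone 17 (12.5 CPM), Cdx1 in ESC/LIF clone 1 (5.01 CPM) and Lgr5 in NOD/ShiLtJ female clone 52 (6.85 CPM).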

How the results depend on the processing

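Each count below is the number of the 10 genes called, against 1 for 2iS iPSC against EpiSC, 1 for NOD/ShiLtJ males against females and 0 in the other 7 comparisons. For 2iS iPSC against EpiSC it was 0 with aligned pairs as library size, 3 with no filter, 4 with at least 10 summed counts and 3 with 4 groups (an alternative chosen after seeing the data). For ESC/LIF iPSC against EpiSC and for 2iS iPSC against ESC it was 1 with no filter, with at least 10 summed counts and with 4 groups. These alternatives test more of the 10 genes. For the NOD/ShiLtJ males it was 3 with aligned pairs and 0 with DESeq2. Leaving out 1 library at a time gave 0 to 2 for 2iS iPSC against EpiSC, 0 to 1 for ESC/LIF iPSC against EpiSC, for the NOD/ShiLtJ male comparison and for 2iS iPSC against ESC, with 0 throughout elsewhere. Of 887 values of single genes under alternatives, 867 stayed on their side of the threshold (53 of them uncalled and with the other sign), 13 lost the call, 6 gained one and 1 reversed with a call: Tcf7l2 in NOD/ShiLtJ males against females, at 1.84 (adjusted p = 0.0395) with aligned pairs, where the median gene moved by 2.41. With the clone number as a replicate block, the media within the 129 clones gave 0 calls among the genes (31 over all genes, against 32), and the block changed no other call. The 887 values leave out genes with an empty group in an arm of several groups, such as Lef1 in 2iS iPSC against EpiSC. The small number of pairs on genes limits 8 of the 10 genes, whose groups often hold fewer than 10 counts.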
